A study of Mus musculus with 32 samples.

Results

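The genes for the receptors of glutamate, GABA, glycine and acetylcholine were followed in the embryonic mouse forebrain. They were taken by gene symbol: the ionotropic glutamate receptor subunits (Gria, Grik, Grin, Grid), the metabotropic glutamate receptors (Grm), the GABA-A and GABA-B receptor subunits (Gabr, Gabbr), the glycine receptor subunits (Glra, Glrb), the muscarinic receptors (Chrm) and the nicotinic subunits (Chrn). This gave 73 genes of the 26331 named genes in the count files. The symbol rule used no measured value, though the receptor genes were chosen with earlier results of these data known. They comprise 4 AMPA, 7 NMDA, 5 kainate and 2 delta subunits, 8 metabotropic glutamate receptors, 19 GABA-A and 2 GABA-B subunits, 5 glycine receptor subunits, 5 muscarinic receptors and 16 nicotinic subunits.

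Fast transmission in the brain runs through ligand-gated channels assembled from several subunits, excited by glutamate or acetylcholine and, in the adult, inhibited by GABA or glycine. Slower signals run through G-protein-coupled receptors, which are the metabotropic glutamate, GABA-B and muscarinic families. In the embryonic cortex, GABA and glycine depolarise young neurons, and receptor genes come on as newborn neurons leave the progenitor zone, before most synapses form.

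The study measured RNA by sequencing in 32 libraries from the developing cortex with loss or gain of Kat6b, which encodes a histone acetyltransferase of the MYST family. On the C57BL/6 background, 5 Kat6b-/- libraries were set against 5 wild-type libraries from E15.5 cortex, and 3 Kat6b-/- against 3 wild-type libraries from E12.5 dorsal telencephalon. On a mixed FVBxBALB/c background, 4 Tg(Kat6b) libraries were set against 4 wild-type libraries at each of the same ages and tissues, because the transgenic mice did not survive on an inbred background. The sources used here give neither the Kat6b allele nor the promoter of the transgene, nor whether embryos were pooled, and p-values measure the spread between these libraries. For C57BL/6, the labels give a litter and an embryo number per library, and each knockout library has a same-numbered wild-type littermate. At E12.5, replicate 1 of both genotypes is from litter 568, and replicates 3 and 4 of both are from litter 592. For FVBxBALB/c no litter is given. The backgrounds were sequenced as different batches. Age and dissection also change together, dorsal telencephalon at E12.5 and cortex at E15.5.

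Total counts ran from 10424813 to 49699656 per library, of which 19263 to 110180 fell on the receptor genes. Kat6b reached 589 to 769 CPM, that is counts per 1000000 counts on named genes after TMM scaling, in Tg(Kat6b) E15.5 libraries, against 153 to 225 CPM in their wild-type libraries, and 465 to 585 CPM against 158 to 195 CPM at E12.5. In knockout libraries the whole-gene Kat6b count was 153 to 190 CPM at E15.5 and 121 to 190 CPM at E12.5, against 151 to 191 CPM and 152 to 193 CPM in wild type, so it did not check the deletion. Knockout E15.5 replicates 3 and 4 stood apart on the second principal component of their background (-33.1 and -25.6, with the other E15.5 libraries at -10.004 to 18.8), and 17.8% of the counts of replicate 3 were from Rn45s, a ribosomal RNA gene. Knockout E15.5 replicate 5 carries a dorsal telencephalon tissue label and a file heading for E12, as does the heading of wild-type replicate 5, and both lay with the E15.5 libraries on the first component (41.1 and 40.0, E12.5 libraries at -85.1 to -42.6). The 13 cortex markers summed to 3422 to 4354 CPM in wild-type C57BL/6 at E15.5 and to 2440 to 2634 CPM at E12.5, with no marker at 0 in any group.

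Receptor RNA made up a larger part of the transcriptome at E15.5 than at E12.5. In wild-type C57BL/6 the 73 genes summed to 2274 to 2563 CPM at E15.5 and to 671 to 1207 CPM at E12.5. In wild-type FVBxBALB/c they summed to 2199 to 2604 CPM at E15.5 and to 632 to 1462 CPM at E12.5. The ranges did not overlap in either background. The 11 pan-neuronal markers moved with the receptor genes: their sum was 7298 to 7598 CPM at E15.5 against 2707 to 3881 CPM at E12.5 in wild-type C57BL/6, and 7645 to 8099 CPM against 2638 to 4721 CPM in wild-type FVBxBALB/c, with no marker at 0. Erythroid markers ran the other way, with 61.8 to 108 CPM at E15.5 against 1946 to 3668 CPM at E12.5 in wild-type C57BL/6, and 96.4 to 165 CPM against 2241 to 9064 CPM in FVBxBALB/c, as did meningeal and mesenchymal markers (29.6 to 117 CPM against 438 to 1343 CPM, and 36.1 to 44.4 CPM against 347 to 1971 CPM). In bulk tissue, fewer cells of a type and less RNA per cell cannot be told apart, and the part of these cell types in the receptor changes was not tested.

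**Figure D1:**
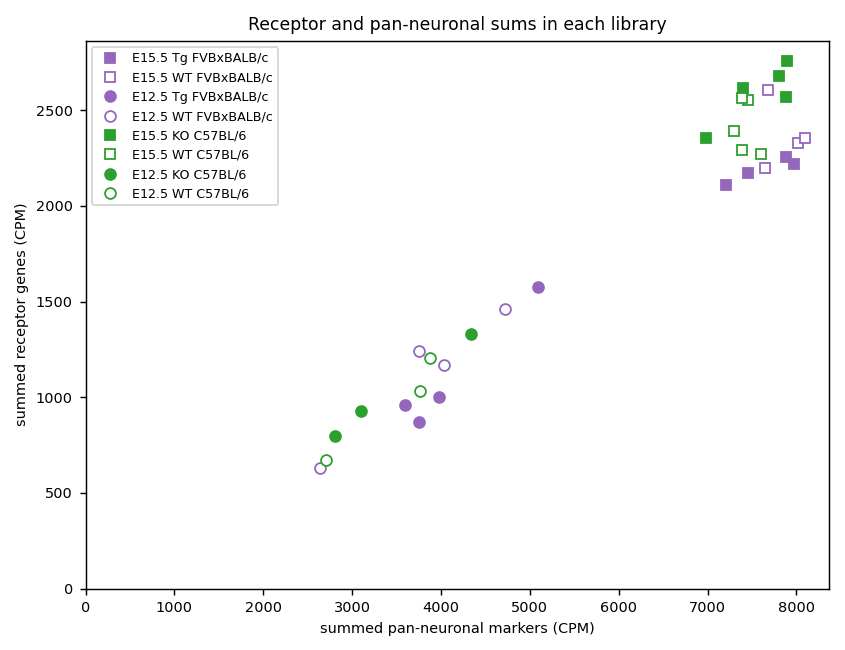
Summed receptor RNA (73 genes, CPM) against summed pan-neuronal marker RNA (11 genes, CPM), 1 point per library; squares are E15.5 and circles E12.5, purple FVBxBALB/c and green C57BL/6, filled knockout or Tg(Kat6b) and open wild type. Wild-type C57BL/6 libraries lie at 2274 to 2563 CPM of receptor RNA at E15.5 and at 671 to 1207 CPM at E12.5.

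Levels of different genes were compared per kilobase of gene length (CPM per kb). Gabbr1, the GABA-binding subunit of the GABA-B receptor, had the highest level in wild-type E15.5 cortex, 71.8 ± 3.20 CPM per kb in C57BL/6 and 55.8 ± 3.85 CPM per kb in FVBxBALB/c (SD, n = 5 and 4). Grik5, a kainate subunit that forms channels only with other kainate subunits, followed in C57BL/6 at 58.5 ± 3.65 CPM per kb and stood after Gria2 in FVBxBALB/c at 43.2 ± 3.90 CPM per kb. Gria2, the AMPA subunit that makes channels impermeable to calcium, had 34.6 ± 4.78 CPM per kb in C57BL/6 and 51.7 ± 12.9 CPM per kb in FVBxBALB/c. In FVBxBALB/c the libraries of Gabbr1, Gria2 and Grik5 covered overlapping ranges (52.7 to 61.4, 40.1 to 66.6 and 39.0 to 48.4 CPM per kb, with Gabbr1 above Grik5). Glra2, Grik3, Gria1, Chrnb2 and Grik2 were among the genes at ranks 4 to 10 in both backgrounds, with 29.1 ± 1.72 CPM per kb for Glra2 and 14.8 ± 1.72 CPM per kb for Grik2 in C57BL/6.

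At E12.5 Grik5 and Gabbr1 had the highest means in both backgrounds. Grik5 had 43.2 ± 10.03 CPM per kb and Gabbr1 32.6 ± 11.2 CPM per kb in wild-type C57BL/6, with overlapping ranges, and 34.3 ± 3.73 and 35.8 ± 11.8 CPM per kb in FVBxBALB/c. Chrna4, a subunit of the main brain nicotinic receptor, ranked 9 of the receptor genes at E12.5 in C57BL/6 with 6.76 ± 2.60 CPM per kb (n = 3), and 24 at E15.5 with 4.22 ± 2.16 CPM per kb (n = 5). Gria1, an AMPA subunit that enters synapses with activity, ranked 17 at E12.5 with 3.13 ± 1.57 CPM per kb and 7 at E15.5 with 23.9 ± 1.66 CPM per kb.

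Most receptor genes that could be tested rose between the ages in wild type. In C57BL/6, 45 of 57 tested receptor genes were higher and 2 lower at E15.5 than at E12.5 (edgeR quasi-likelihood test, Benjamini-Hochberg adjusted p under 0.05 over all genes tested), where 56.8% of all 16118 tested genes were called, 28.6% higher and 28.2% lower. In FVBxBALB/c, 40 of 54 were higher and 4 lower, where 50.1% of all 15556 tested genes were called, 25.1% in each direction. The median log2 fold change of the tested receptor genes was 1.49 in C57BL/6 and 1.17 in FVBxBALB/c, beside -0.02 and -0.03 over all tested genes and 1.43 and 1.24 over the pan-neuronal markers, of which 9 of 11 were called higher in both. A gene enters the test once enough libraries reach about 10 counts, so a gene expressed at E15.5 alone could enter only by being higher there, and the medians cover only genes that entered. The backgrounds were tested in separate fits on different embryos.

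**Figure D2:**
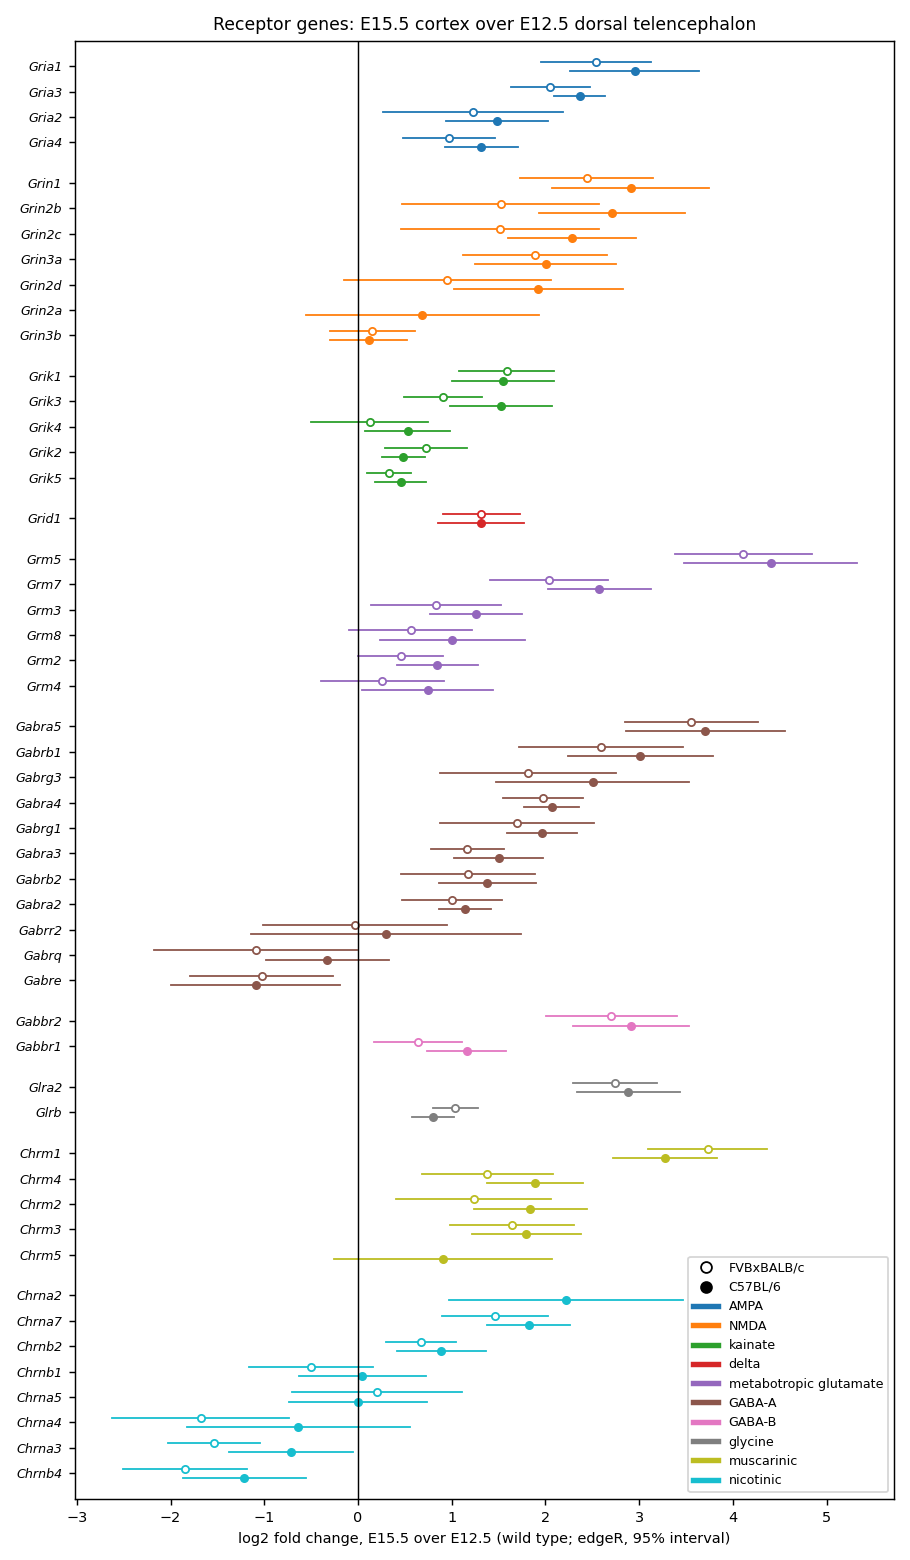
Log2 fold change (E15.5 over E12.5, wild type) of each tested receptor gene with its 95% interval, grouped by receptor family, C57BL/6 and FVBxBALB/c beside each other; Gabrd is not drawn because it had 0 counts at E12.5 in C57BL/6, nor are genes not reported here. Grm5 lies farthest to the right at 4.40 and 4.11, and Chrnb4 lies left of 0 at -1.21 and -1.85.

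All 4 AMPA subunits, which carry the fast glutamate current, were called higher in both backgrounds. Gria1 had 148, 133, 133, 145 and 156 CPM in the wild-type C57BL/6 E15.5 libraries, against 8.33, 26.7 and 21.1 CPM at E12.5. In wild-type FVBxBALB/c it had 118, 139, 143 and 153 CPM at E15.5, against 29.7, 26.6, 27.8 and 11.4 CPM at E12.5. Each E15.5 library was above each E12.5 library, and the log2 fold change was 2.95 (SE 0.315, edgeR adjusted p = 2.17e-06) in C57BL/6 and 2.54 (SE 0.267, adjusted p = 1.14e-06) in FVBxBALB/c. Gria3 was the next largest, with 53.1 ± 2.58 CPM at E15.5 and 10.4 ± 1.34 CPM at E12.5 in C57BL/6 (SD, n = 5 and 3; log2 fold change 2.37) and 57.9 ± 7.82 and 14 ± 2.60 CPM in FVBxBALB/c (n = 4 each; 2.05). Gria2 and Gria4 also rose, by 1.49 and 1.31 on the log2 scale in C57BL/6 and by 1.23 and 0.97 in FVBxBALB/c.

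Within the AMPA pool, the share of Gria1 was higher and those of Gria2 and Gria4 lower on average at E15.5. Gria1 made up 30.9% ± 2.85 of the length-scaled AMPA RNA at E15.5 and 14.1% ± 4.15 at E12.5 in wild-type C57BL/6, and 24.8% ± 5.15 and 12.52% ± 2.25 in FVBxBALB/c. Gria2 made up 44.3% ± 3.46 at E15.5 and 58.3% ± 3.95 at E12.5 in C57BL/6, without overlap between libraries, and 53.7% ± 6.57 and 62.9% ± 9.75 in FVBxBALB/c, where the ranges overlapped. Gria4 made up 11.6% ± 0.6998 at E15.5 and 17.7% ± 1.89 at E12.5 in C57BL/6, and 9.70% ± 0.807 and 15.3% ± 3.99 in FVBxBALB/c. These shares are given with no test.

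The kainate subunits, which modulate both sides of the synapse, had a median log2 fold change of 0.53 in C57BL/6 and 0.73 in FVBxBALB/c. Grik1, Grik2, Grik3 and Grik5 were called higher in both backgrounds. Grik3 had 240 ± 15.6 CPM at E15.5 against 84.1 ± 36.4 CPM at E12.5 in C57BL/6 and 201 ± 20.7 CPM against 107 ± 29.9 CPM in FVBxBALB/c. Grik4 was called in C57BL/6 (log2 fold change 0.53, edgeR adjusted p = 0.0386) and had 6.24 ± 0.842 CPM at E15.5 and 5.79 ± 2.07 CPM at E12.5 in FVBxBALB/c, where it was not called. Grid1, a delta subunit that binds cerebellins across the synapse, rose by 1.31 and 1.32 on the log2 scale.

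Of the 7 NMDA subunits, 5 were called higher in C57BL/6, and 4 of 6 tested in FVBxBALB/c, beside 28.6% and 25.1% of all tested genes. Grin1, which encodes the obligatory subunit GluN1, had 25.3, 27.8, 27.8, 23.8 and 30.8 CPM in wild-type C57BL/6 E15.5 libraries, against 1.05, 5.51 and 4.32 CPM at E12.5. Grin2b, the GluN2 subunit of the fetal forebrain, had 30.6, 22.1, 13.9, 18.9 and 17.4 CPM at E15.5, against 1.52, 4.49 and 3.32 CPM at E12.5. In both genes every E15.5 library was above every E12.5 library, with log2 fold changes of 2.91 (SE 0.384, edgeR adjusted p = 1.49e-05) for Grin1 and 2.71 (SE 0.358, adjusted p = 1.32e-05) for Grin2b. In FVBxBALB/c the log2 fold changes were 2.44 (edgeR adjusted p = 1.37e-05) and 1.53 (SE 0.482, adjusted p = 0.0149), and Grin2b had 8.61 ± 2.20 CPM at E15.5 and 3.01 ± 1.61 CPM at E12.5 there.

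Grin2a, the GluN2 subunit that replaces part of GluN2B after birth, was low, with 0.306 ± 0.206 CPM at E15.5 and 0.211 ± 0.0944 CPM at E12.5 in wild-type C57BL/6, and was too low to test in FVBxBALB/c. The GluN2 pool was mostly Grin2b and Grin2d. Grin2b held 47.0% ± 8.94 of the length-scaled GluN2 RNA at E15.5 and 32.9% ± 3.15 at E12.5 in C57BL/6, without overlap. Grin2d, a subunit of slowly closing channels found early and in the interneuron lineage, held 46.6% ± 8.32 at E15.5 and 58.5% ± 3.33 at E12.5, with overlap, and was called higher in level in C57BL/6 (log2 fold change 1.92, edgeR adjusted p = 0.000997) but not in FVBxBALB/c (0.95, adjusted p = 0.13). In FVBxBALB/c the shares of both subunits overlapped between the ages. Grin3a, a glycine-binding subunit of juvenile receptors, was called higher in both backgrounds, and Grin3b had 3.31 ± 0.509 CPM at E15.5 and 3.07 ± 0.692 CPM at E12.5 in C57BL/6 with no call.

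Grm5, the group I metabotropic receptor of cortical progenitors and young neurons, had the largest fold change of the receptor genes detected in every wild-type library. It had 85.5, 62.0, 54.4, 61.0 and 62.9 CPM in wild-type C57BL/6 E15.5 libraries, against 0.711, 5.36 and 2.85 CPM at E12.5. In wild-type FVBxBALB/c it had 63.3, 64.5, 61.7 and 74.0 CPM at E15.5, against 6.24, 3.75, 4.24 and 1.68 CPM at E12.5. The E15.5 and E12.5 libraries did not overlap, and the log2 fold change was 4.40 (SE 0.424, edgeR adjusted p = 8.99e-07) in C57BL/6 and 4.11 (SE 0.337, adjusted p = 8.79e-08) in FVBxBALB/c. Grm5 thereby held 35.8% ± 4.84 of the length-scaled metabotropic RNA at E15.5 and 4.95% ± 3.07 at E12.5 in C57BL/6, and 41.2% ± 4.88 and 6.37% ± 1.34 in FVBxBALB/c.

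The other metabotropic receptors had smaller fold changes. Grm7, a presynaptic group III receptor, had log2 fold changes of 2.58 and 2.04. Grm3, a group II receptor, rose by 1.26 and 0.83 on the log2 scale. Grm2 and Grm8 were called in C57BL/6 (0.85, edgeR adjusted p = 0.00147, and 1.01, adjusted p = 0.0233) and not in FVBxBALB/c (0.45, adjusted p = 0.0795, and 0.56, adjusted p = 0.131). Grm4 was called in neither, with 7.89 ± 1.65 CPM at E15.5 and 4.72 ± 1.81 CPM at E12.5 in C57BL/6. Grm6, the receptor of retinal bipolar cells, had at most 6 counts in a library and was not tested.

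**Figure D3:**
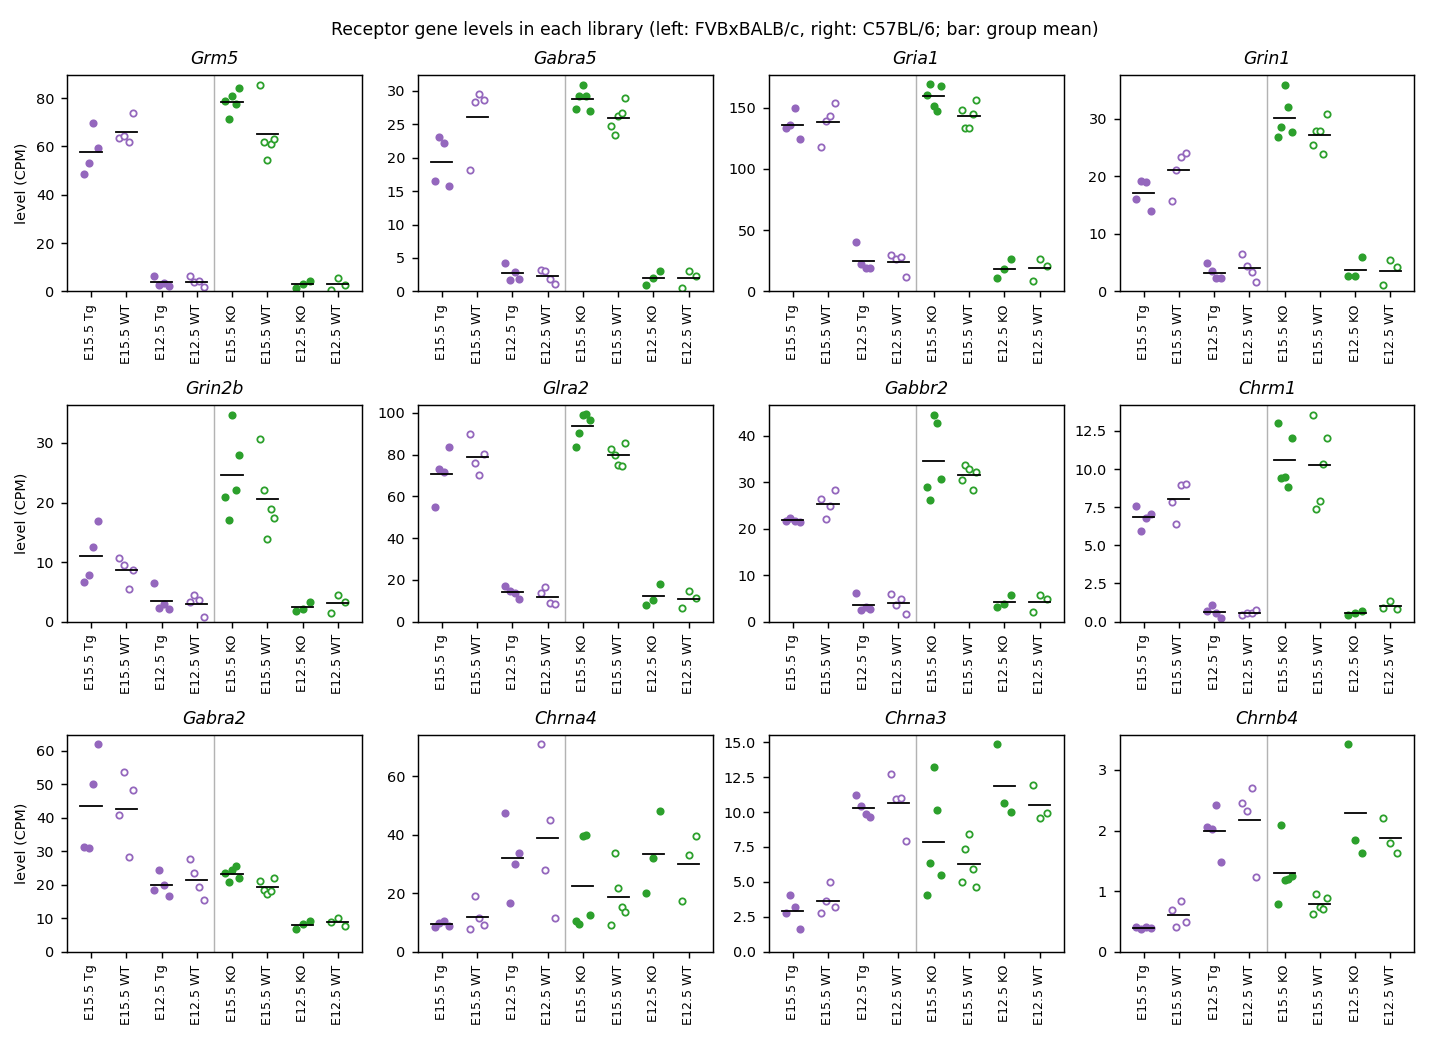
Level (CPM, linear axis from 0) of 12 receptor genes in every library, 1 point per library, with a bar at the group mean; FVBxBALB/c is left (purple) and C57BL/6 right (green), open points are wild type. For Grm5, Gria1 and Gabra5 all E15.5 points lie above all E12.5 points, and for Chrnb4 the wild-type E15.5 points lie below the wild-type E12.5 points.

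Of the 15 GABA-A subunits tested, 12 were called higher and 1 lower in each background. Over all tested genes 28.6% were higher and 28.2% lower in C57BL/6, and 25.1% in each direction in FVBxBALB/c. Gabra5, the alpha subunit of tonic, extrasynaptic receptors in cortex and hippocampus, had 24.8, 23.4, 26.2, 26.7 and 28.9 CPM in wild-type C57BL/6 E15.5 libraries, against 0.474, 3.09 and 2.37 CPM at E12.5. In wild-type FVBxBALB/c it had 18.1, 28.3, 29.5 and 28.7 CPM at E15.5, against 3.15, 3.00, 1.86 and 1.17 CPM at E12.5. The ages were far apart in every library, and the log2 fold change was 3.71 (SE 0.388, edgeR adjusted p = 1.54e-06) in C57BL/6 and 3.56 (SE 0.327, adjusted p = 2.8e-07) in FVBxBALB/c. Gabra2, an alpha subunit found mainly at synapses, also rose, by 1.14 and 1.00 on the log2 scale.

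Gabra5 held 25.3% ± 2.35 of the length-scaled alpha-subunit RNA at E15.5 and 6.41% ± 3.96 at E12.5 in wild-type C57BL/6, and 19.6% ± 3.88 and 4.49% ± 1.02 in FVBxBALB/c. Gabra2 and Gabra3, the alpha subunits of embryonic forebrain receptors, held the rest for the most part: 21.2% ± 2.10 and 35.4% ± 4.58 at E15.5, and 34.0% ± 4.81 and 44.3% ± 2.12 at E12.5 in C57BL/6.

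**Figure D4:**
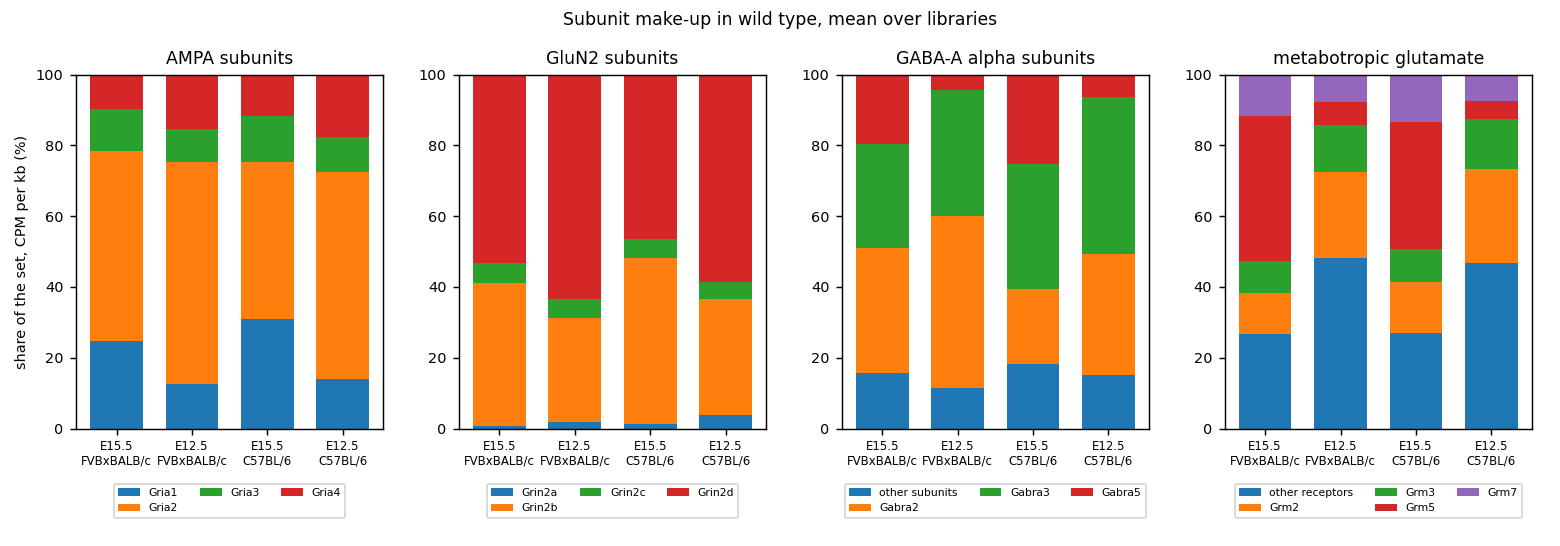
Stacked bars of the mean share (%) of each subunit in the length-scaled RNA (CPM per kb) of its pool in wild type, with E15.5 left of E12.5 for each background; some alpha subunits and metabotropic receptors are drawn together as other. Gria1 stands at 30.9% and 14.1%, Gabra5 at 25.3% and 6.41% and Grm5 at 35.8% and 4.95% in C57BL/6 at E15.5 and E12.5.

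Gabrd, the delta subunit of extrasynaptic receptors, was detected at the later age. It had 12, 21, 24, 29 and 46 counts in the wild-type C57BL/6 E15.5 libraries and 0 counts in all 3 E12.5 libraries, so its level was at least 35.8-fold higher, taking a floor of 3 counts over the E12.5 group. In wild-type FVBxBALB/c it had 56 counts in all at E15.5 and 1 count at E12.5, a ratio of 140 with a 95% counting interval of 24.05 to 5610. The Kat6b-/- E12.5 libraries also had 0 counts, and the Tg(Kat6b) E12.5 libraries had 0 to 2. Gabre was the subunit that fell, by 1.09 on the log2 scale in C57BL/6 (edgeR adjusted p = 0.0332; 0.855 ± 0.350 CPM at E15.5 and 1.81 ± 0.682 CPM at E12.5) and by 1.03 in FVBxBALB/c (adjusted p = 0.0224). Its groups overlapped, and the call was lost without any of 4 single wild-type C57BL/6 libraries (E12.5 replicate 3 or 4, E15.5 replicate 1 or 5), or 3 FVBxBALB/c libraries (E12.5 replicate 2, E15.5 replicate 1 or 4), and with limma-voom in FVBxBALB/c, with adjusted p up to 0.13 in C57BL/6 and 0.0916 in FVBxBALB/c.

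Gabra4 and Gabrb1 are neighbours, and both rose. Gabra4 (chr5:71569734-71658308, minus strand, RefSeq GRCm38.p6) and Gabrb1 (chr5:71657921-72149572, plus strand) start head to head and overlap by 388 bases. Gabra4, an alpha subunit of extrasynaptic receptors, had 17.2 ± 1.85 CPM at E15.5 and 4.15 ± 0.133 CPM at E12.5 in C57BL/6, and 18.6 ± 2.42 and 4.70 ± 0.808 CPM in FVBxBALB/c, with log2 fold changes of 2.07 (SE 0.135, edgeR adjusted p = 7.72e-09) and 1.97 (SE 0.195, adjusted p = 5e-07). Gabrb1 had 3.17 ± 0.474 CPM at E15.5 and 0.362 ± 0.199 CPM at E12.5 in C57BL/6, and 2.63 ± 0.321 and 0.478 ± 0.326 CPM in FVBxBALB/c, with log2 fold changes of 3.01 and 2.59. The library kit did not mark strand, so reads of these genes in the shared bases cannot be told apart. The 250 bases before each start are shown because the genes lie head to head and both rose. A rise was common: 45 of 57 tested receptor genes were called higher in C57BL/6 and 40 of 54 in FVBxBALB/c. The third line is for Gabra5, which had the largest change of the GABA-A subunits detected in every wild-type library, and its window precedes a transcript start that lies 80957 bases inside the annotated gene. Capitals mark CAGATG or its reverse complement CATCTG, an E-box read by proneural bHLH factors, in either strand.
Gabra4 chr5:71658309-71658558, minus strand: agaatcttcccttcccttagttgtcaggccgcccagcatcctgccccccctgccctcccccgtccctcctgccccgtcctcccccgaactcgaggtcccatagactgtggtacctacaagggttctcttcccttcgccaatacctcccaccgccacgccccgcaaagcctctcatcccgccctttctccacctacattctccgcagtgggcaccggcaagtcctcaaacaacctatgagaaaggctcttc
Gabrb1 chr5:71657671-71657920, plus strand: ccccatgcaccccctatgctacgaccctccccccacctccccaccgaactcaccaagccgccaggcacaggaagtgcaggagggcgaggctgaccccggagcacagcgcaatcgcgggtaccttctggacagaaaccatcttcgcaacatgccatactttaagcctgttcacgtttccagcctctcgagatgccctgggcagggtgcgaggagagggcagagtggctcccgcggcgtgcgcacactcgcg
Gabra5 chr7:57510060-57510309, minus strand: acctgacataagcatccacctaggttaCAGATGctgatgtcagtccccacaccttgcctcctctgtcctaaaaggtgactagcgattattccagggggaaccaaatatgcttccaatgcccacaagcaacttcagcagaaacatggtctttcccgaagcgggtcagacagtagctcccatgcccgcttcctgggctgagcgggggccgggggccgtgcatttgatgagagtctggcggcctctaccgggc

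These windows come from RefSeq (GRCm38.p6). The Gabra4 and Gabrb1 windows each lie inside the other gene, hold 12 and 18 CpG and have 61.2% and 64.4% GC, and neither holds the E-box. The Gabra5 window holds 1 match. Over the receptor genes, 52 had at least 1 RefSeq window, and 3 of their 60 windows (5%) held the E-box (Gabra5, Gabrr1 and Grin3b), against 14.4% of 32851 windows of all genes. The left and right parts of the RE1 element, which the repressor REST binds, were also searched on both strands. The left part was in 1 of 60 receptor windows (1.67%, Grm2) and 0.301% of all windows, and the right part in 0 receptor windows and 0.0974% of all windows. A match is a description of letters.

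Both GABA-B subunits were called higher. Gabbr2, the subunit that couples the receptor to G proteins, had 31.6 ± 2.14 CPM at E15.5 and 4.22 ± 1.84 CPM at E12.5 in C57BL/6 (log2 fold change 2.91, SE 0.283, edgeR adjusted p = 6.54e-07), and 25.4 ± 2.62 and 3.99 ± 1.84 CPM in FVBxBALB/c (2.70, SE 0.321, adjusted p = 3.94e-06). Gabbr1 changed less, by 1.16 and 0.64 on the log2 scale. The 2 proteins work as an obligate pair.

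Glycine receptor alpha-subunit RNA was nearly all Glra2, the alpha subunit of fetal neurons. Glra2 had 82.8, 79.6, 75.3, 74.8 and 85.7 CPM in wild-type C57BL/6 E15.5 libraries, against 6.54, 14.7 and 11.3 CPM at E12.5. In wild-type FVBxBALB/c it had 89.8, 75.9, 70.2 and 80.3 CPM at E15.5, against 13.8, 16.3, 8.93 and 8.67 CPM at E12.5. The groups did not overlap, and the log2 fold change was 2.89 (SE 0.254, edgeR adjusted p = 2.89e-07) in C57BL/6 and 2.74 (SE 0.205, adjusted p = 3.97e-08) in FVBxBALB/c. Glra2 held 99.5% ± 0.372 of the length-scaled alpha RNA at E15.5 and 97.7% ± 1.27 at E12.5 in C57BL/6. Glrb, the beta subunit that binds gephyrin, rose by 0.80 and 1.04 on the log2 scale. Per length in C57BL/6, Glrb had 10.4 ± 0.673 and Glra2 29.1 ± 1.72 CPM per kb at E15.5 (SD, n = 5). At E12.5 Glrb had the higher mean, with 6.06 ± 0.798 CPM per kb, and Glra2 had 3.96 ± 1.497 CPM per kb (n = 3).

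The acetylcholine receptors divided. Among the muscarinic receptors, Chrm1, Chrm2, Chrm3 and Chrm4 were called higher in both backgrounds. Chrm1, the main excitatory muscarinic receptor of cortex, had 13.6, 7.41, 7.92, 10.4 and 12.03 CPM in wild-type C57BL/6 E15.5 libraries, against 0.914, 1.36 and 0.843 CPM at E12.5. Chrm1 rose by 3.27 on the log2 scale (SE 0.256, edgeR adjusted p = 4.01e-08) in C57BL/6 and by 3.73 (SE 0.290, adjusted p = 4.82e-08) in FVBxBALB/c, where the means were 8.05 ± 1.22 CPM at E15.5 and 0.583 ± 0.119 CPM at E12.5. Chrm5 stayed under 1 CPM in both age groups of C57BL/6 and was not called there.

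The nicotinic subunits did not follow the general rise. Chrna7, which forms calcium-permeable homomers, and Chrnb2, the beta subunit of most brain receptors, were called higher in both backgrounds (log2 fold changes 1.82 and 1.47 for Chrna7, 0.89 and 0.67 for Chrnb2), and Chrna2 in C57BL/6, having been too low to test in FVBxBALB/c. Chrnb4 and Chrna3, the subunits of the ganglionic and habenular receptor, went the other way. Chrnb4 had 0.624, 0.952, 0.738, 0.703 and 0.887 CPM in wild-type C57BL/6 E15.5 libraries, against 2.20, 1.80 and 1.63 CPM at E12.5, and 0.685, 0.415, 0.830 and 0.496 CPM at E15.5 against 2.46, 2.32, 2.70 and 1.23 CPM at E12.5 in FVBxBALB/c. The groups did not overlap, and Chrnb4 fell by 1.21 on the log2 scale in C57BL/6 (SE 0.302, edgeR adjusted p = 0.00252) and by 1.85 in FVBxBALB/c (SE 0.304, adjusted p = 9.43e-05).

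Chrna3 had 2.74, 3.64, 4.98 and 3.17 CPM in wild-type FVBxBALB/c E15.5 libraries, against 12.7, 10.9, 11.02 and 7.94 CPM at E12.5, and fell by 1.54 on the log2 scale (SE 0.227, edgeR adjusted p = 3.33e-05). In C57BL/6 it had 6.29 ± 1.61 CPM at E15.5 and 10.5 ± 1.26 CPM at E12.5. The C57BL/6 groups did not overlap either, and the adjusted p was 0.0562 at a log2 fold change of -0.71. Chrna4 had 7.93, 18.9, 11.5 and 9.03 CPM in FVBxBALB/c E15.5 libraries, against 70.9, 28.1, 45.2 and 11.6 CPM at E12.5. It fell by 1.68 on the log2 scale (adjusted p = 0.00409, 0.0749 with limma-voom) although 1 E12.5 library lay within the E15.5 range, and it was not called in C57BL/6 (-0.64, adjusted p = 0.34).

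Summed markers of neighbouring brain regions were also lower at E15.5 than at E12.5 in wild type. The 17 markers of diencephalon, midbrain and hindbrain summed to 46.5 to 314 CPM in wild-type C57BL/6 E15.5 libraries against 437 to 471 CPM at E12.5, and to 49.9 to 89.7 CPM against 227 to 934 CPM in FVBxBALB/c. Of those tested, 6 of 12 were called lower at E15.5 in C57BL/6 and 10 of 10 in FVBxBALB/c, beside 28.2% and 25.1% of all tested genes. Markers at 0 in all libraries numbered 2 at E15.5 and 3 at E12.5 in C57BL/6, and 2 at E15.5 and 1 at E12.5 in FVBxBALB/c. Chrna4 in FVBxBALB/c was highest (70.9 CPM) in the library with the highest sum (934 CPM) and, at E12.5, lowest (11.6 CPM) in that with the lowest (227 CPM). Chrna3 had its highest and lowest E12.5 values (12.7 and 7.94 CPM) in the same libraries. These libraries were also highest and lowest of their group for pan-neuronal markers (4721 and 2638 CPM) and the receptor sum (1462 and 632 CPM). The same held for sensory and autonomic ganglion markers (87.5 and 32.9 CPM). Chrnb4 was highest (2.70 CPM) in replicate 3 of that group and lowest (1.23 CPM) in the library with the lowest sum. In knockout E12.5 libraries, Chrna3 and Chrnb4 were instead highest (14.9 and 3.43 CPM) in replicate 1, with the lowest sum (156 CPM). In knockout E15.5 libraries, Chrnb4 was highest (2.08 CPM) in replicate 2, with a sum of 58.9 CPM. The 7 markers of sensory and autonomic ganglia, which also use Chrna3 and Chrnb4, summed to 42.6 to 63.4 CPM at E15.5 and 25.4 to 65.0 CPM at E12.5 in C57BL/6, and to 47.8 to 77.3 CPM and 32.9 to 87.5 CPM in FVBxBALB/c. The part of either tissue in the nicotinic changes was not tested.

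Chrna5, Chrna3 and Chrnb4 form a cluster on chromosome 9. Chrna5 (chr9:54980827-55011420, RefSeq GRCm38.p6) overlaps Chrna3 (chr9:55010117-55026562) by 1304 bases, and Chrnb4 (chr9:55028154-55048953) lies 1591 bases beyond Chrna3. Chrna5, the accessory subunit, had 1.58 ± 0.735 CPM at E15.5 and 1.57 ± 0.3001 CPM at E12.5 in C57BL/6 and was called in neither background (log2 fold changes 0.00 and 0.20). Its counts may share the overlap with Chrna3. The windows before a transcript start of Chrna3 and of Chrnb4, which for Chrnb4 lies 409 bases inside the annotated gene, are shown because both genes run in the same direction and had lower means at E15.5, with capitals for CAGCTG, an E-box that is its own reverse complement.
Chrna3 chr9:55026563-55026812, minus strand: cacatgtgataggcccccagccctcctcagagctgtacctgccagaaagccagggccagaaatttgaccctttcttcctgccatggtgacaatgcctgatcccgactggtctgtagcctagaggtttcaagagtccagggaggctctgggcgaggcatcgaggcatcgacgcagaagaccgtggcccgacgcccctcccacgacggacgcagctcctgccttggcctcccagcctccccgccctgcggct
Chrnb4 chr9:55048545-55048794, minus strand: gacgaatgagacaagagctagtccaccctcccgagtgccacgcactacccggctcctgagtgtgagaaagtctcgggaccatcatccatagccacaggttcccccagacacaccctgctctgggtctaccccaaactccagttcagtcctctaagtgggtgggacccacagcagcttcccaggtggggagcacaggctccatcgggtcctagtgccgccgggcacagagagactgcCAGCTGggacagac

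The Chrnb4 window held 1 CAGCTG and the Chrna3 window none. Of 60 receptor windows, 7 (11.7%) held it, against 13% of all windows (RefSeq GRCm38.p6). The genes with a match were Chrna1, Chrna9, Chrnb4, Chrne, Chrng, Gabrp and Glra3, of which Chrnb4 was the one high enough to test.

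The genes that make, move and hold the receptors and their ligands were tested in the same fits. Of 29 auxiliary subunits and chaperones tested in C57BL/6, 26 were higher and 1 lower at E15.5, and of 28 in FVBxBALB/c 23 were higher and 1 lower, where over all tested genes 28.6% were higher and 28.2% lower in C57BL/6, and 25.1% in each direction in FVBxBALB/c. Cnih3, a cornichon that exports AMPA receptors, rose by 2.92 and 2.95 on the log2 scale, and Lypd6b, a Ly6 protein that binds nicotinic receptors, by 2.12 and 2.29. Kctd12b, a KCTD protein, was the gene called lower in both, by 1.08 and 0.99 (named after its values were seen). Of 31 scaffold and trafficking genes tested in C57BL/6, 25 were higher and 5 lower, and of 30 in FVBxBALB/c 24 were higher and 4 lower, beside the same shares over all genes. Dlgap1 rose by 2.51 and 2.50 and Dlg2, the postsynaptic scaffold PSD-93, by 2.99 and 2.39. Nptx1, a pentraxin that gathers AMPA receptors, rose by 1.65 in C57BL/6, and Gabarapl1 by 1.15 in FVBxBALB/c.

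Genes that handle the ligands were called in both directions. Over all tested genes 56.8% were called in C57BL/6 and 50.1% in FVBxBALB/c, and the counts of these short lists are not read as a result about them. Values are given for C57BL/6 and then FVBxBALB/c. Of 13 glutamate genes, 4 were higher and 2 lower in C57BL/6, and 4 higher and 3 lower in FVBxBALB/c: Slc1a1, the neuronal glutamate transporter, rose by 3.11 and 2.87 on the log2 scale, and the neutral amino acid transporter Slc1a5 fell by 1.56 and 1.57. Of 9 GABA and glycine genes tested, 5 were higher and 1 lower in C57BL/6, and 3 higher and 3 lower in FVBxBALB/c. Slc6a11, a GABA transporter, rose by 2.67 and 2.64, and Gad1, which makes GABA, by 1.53 and 1.00 (edgeR). Among 5 chloride transporters tested, Slc12a5 (KCC2), which lowers chloride in mature neurons, rose by 1.87 and 0.90, and Slc12a2 (NKCC1), which raises it in young neurons, fell by 0.57 and 0.50. Of 4 acetylcholine genes, Bche fell by 1.42 and 1.66 and the vesicular transporter Slc18a3 rose by 1.47 and 2.39.

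For loss of Kat6b, no receptor gene passed the test at either age. Of 57 tested receptor genes 0 were called at E15.5 and 0 at E12.5 (edgeR, adjusted p under 0.05), where 0% and 0.0062% of all tested genes were called. At an unadjusted p under 0.05 there were 5 at E15.5 and 2 at E12.5, that is 8.77% and 3.51% of the tested receptor genes, beside 2.83% and 5.22% of all tested genes, and DESeq2 and limma-voom called 0 at both ages. Grm3 at E15.5 had 7.92, 8.40, 12.4, 12.6 and 8.27 CPM in knockout libraries, against 7.49, 9.04, 6.10, 6.33 and 6.45 CPM in wild type (log2 fold change 0.49, SE 0.182, unadjusted p = 0.0155, edgeR adjusted p = 1). Knockout replicates 3 and 4 were the highest, and the groups overlapped through wild-type replicate 2. Gabra2 (0.27), Chrnb4 (0.68) and Gabrg1 (0.28) were also among the 5 smallest p, all with edgeR adjusted p = 1.

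At E12.5 Chrm1 had 0.413, 0.579 and 0.684 CPM in knockout libraries, against 0.914, 1.36 and 0.843 CPM in wild type. The groups did not overlap, and the log2 fold change of -0.92 (SE 0.307, unadjusted p = 0.00824) had an edgeR adjusted p of 0.881. Next by p were Grm7 (0.56), Glrb (-0.23, groups not overlapping), Grm2 (0.33) and Chrnb1 (0.45). Chrm4 (0.31) did not overlap either, with the knockout libraries higher (1.03 to 1.20 CPM, against 0.847 to 0.978 CPM). How many of all tested genes did not overlap was not counted. With 3 libraries per group, the separation is not read as a result. The 95% interval for Chrm1 ran from -1.59 to -0.25 before adjustment and that of Glrb from -0.47 to 0.02. At E15.5 Chrm1 had 8.84 to 13.0 CPM in knockout libraries and 7.41 to 13.6 CPM in wild type, and the knockout difference at E15.5 minus that at E12.5 was 0.98 (unadjusted p = 0.0136, edgeR adjusted p = 1). No receptor gene was called for a change of the knockout difference between the ages, where 0% of all tested genes were. By unadjusted p under 0.05 there were 2, Chrm1 and Gabra2 (3.51%, beside 2.72% of all tested genes), and the next were Glrb (0.28), Gabrg1 (0.44) and Grm3 (0.58).

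At E15.5 most receptor genes lay slightly above wild type in the knockout, 47 of 57 above 0 with a median log2 fold change of 0.16, beside 53% above 0 and a median of 0.01 over all tested genes. Without knockout replicates 3 and 4, which stand apart, 33 of 56 lay above 0 and the median was 0.03. Those libraries held 39.7 and 39.9 CPM of Chrna4 and 13.2 and 10.1 CPM of Chrna3, where the other knockout libraries held 9.51 to 12.7 CPM and 4.07 to 6.38 CPM. Their diencephalon, midbrain and hindbrain markers summed to 332 and 323 CPM, against 53.5 to 58.9 CPM in the other knockout libraries and 46.5 to 314 CPM in wild type, where replicate 2 had the 314 CPM and 33.8 CPM of Chrna4. Their part in the shift was not tested. Pan-neuronal markers were also above wild type, 10 of 11 with a median of 0.07. At E12.5 33 of 57 lay above 0 with a median of 0.02, a count that ran from 13 to 40 when single libraries were left out (13 without knockout replicate 4 and 17 without wild-type replicate 1).

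**Figure D5:**
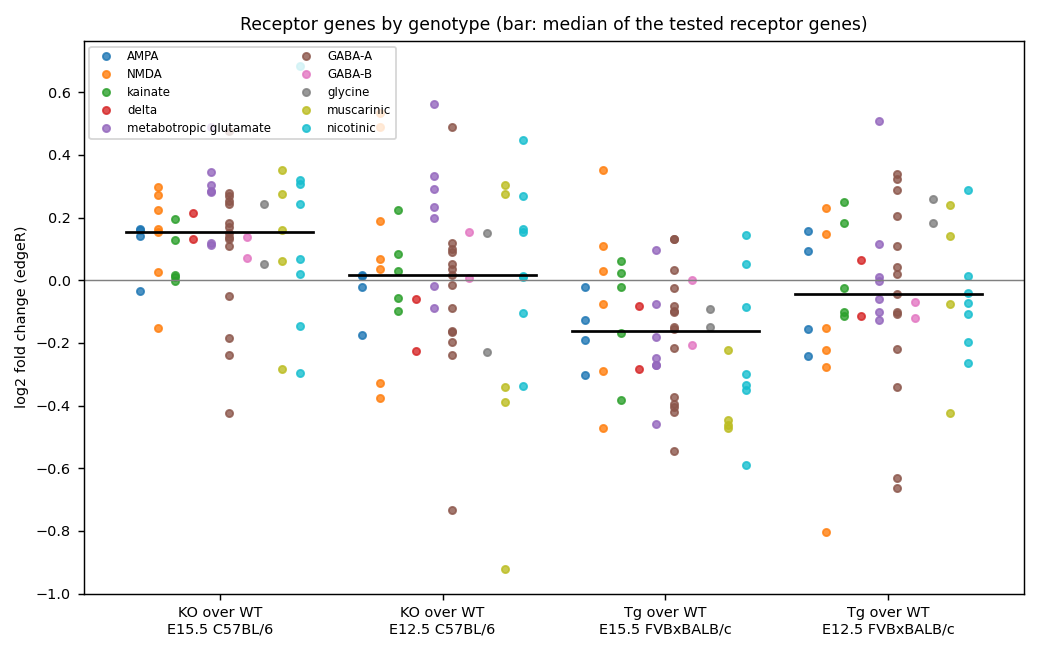
Log2 fold change of each tested receptor gene for knockout over wild type (C57BL/6) and Tg(Kat6b) over wild type (FVBxBALB/c) at each age, 1 point per gene; the line at 0 is no difference, and Gabrd is left out at E12.5 for its counts near 0. At E15.5, 47 of 57 points lie above 0 for the knockout and 43 of 54 below 0 for Tg(Kat6b), and none was called.

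Gain of Kat6b also gave no call. Of 54 tested receptor genes 0 were called at E15.5 and 0 at E12.5 (edgeR), where 0.0129% of all tested genes were called at each age. None had an unadjusted p under 0.05 at either age, beside 2.22% of all tested genes at E15.5 and 6.68% at E12.5, and DESeq2 and limma-voom called 0. At E15.5 Chrm3 had 2.50, 3.11, 2.99 and 3.29 CPM in Tg(Kat6b) libraries, against 3.82, 4.01, 4.57 and 4.07 CPM in wild type. Chrnb4 had 0.404, 0.382, 0.405 and 0.386 CPM in Tg(Kat6b), against 0.685, 0.415, 0.830 and 0.496 CPM in wild type. In both genes every Tg(Kat6b) library was below every wild-type library. The Chrnb4 levels rest on 5, 7, 5 and 4 counts in Tg(Kat6b), against 7, 9, 12 and 5 counts in wild type. How many of all tested genes separated in this way was not counted, and the separation is not read as a result. The log2 fold changes were -0.46 (SE 0.2997) for Chrm3 and -0.59 (SE 0.367) for Chrnb4, both with edgeR adjusted p = 1. Grm8 (-0.46) and Gabra5 (-0.42) were also among the 5 smallest p.

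Across the tested receptor genes at E15.5, 43 of 54 lay below wild type in Tg(Kat6b), with a median log2 fold change of -0.16, beside 0.00 over all tested genes, of which 51% lay above 0. This count below wild type stayed between 41 and 46 when single libraries were left out. Pan-neuronal markers were lower as well, 10 of 11 below wild type with a median of -0.15, none called. At E12.5 the receptor genes were split, 24 above and 30 below 0, and the count above 0 ran from 11 to 41 when single libraries were left out (11 without Tg(Kat6b) replicate 1 or wild-type replicate 4, and 41 without wild-type replicate 1). Gabre (-0.66, edgeR adjusted p = 0.762), Glrb (0.18) and Grin2c (-0.80) were among the 5 smallest p at E12.5. With sample quality weights in limma-voom, Gabre and Gria2 were called lower at E12.5. That run also called many more of all tested genes than the main fit, as given in the last section. It gave Tg(Kat6b) replicate 1, which held the highest Gria2 of its group, a weight of 0.272. The calls are not read as a result about the receptor genes. No receptor gene was called for a change of the transgene difference between the ages, where 0% of all tested genes were, and 0 had an unadjusted p under 0.05, beside 4.04% of all tested genes. Gabra4 (-0.50), Glrb (-0.27), Gabra5 (-0.74) and Glra2 (-0.41) were among the 5 smallest p there.

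In each of the 6 lists of ligand, auxiliary and scaffold genes, 0 were called at either age in knockout or Tg(Kat6b) (edgeR). A p over the threshold does not show equal levels. Before adjustment, the 95% interval of the log2 fold change at E15.5 ran from 0.09 to 0.89 for Grm3 in the knockout. For Chrm3 in Tg(Kat6b) the interval ran from -1.11 to 0.19. Both genes were picked for their small p, and neither was called.

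Gabra2 had the smallest p of the receptor genes between the wild-type libraries of the backgrounds at both ages. Background, sequencing batch and embryos cannot be told apart in this comparison. At E15.5 Gabra2 had 40.8, 53.6, 28.4 and 48.2 CPM in FVBxBALB/c, against 21.1, 18.4, 17.4, 18.2 and 22.1 CPM in C57BL/6. At E12.5 it had 27.6, 23.5, 19.5 and 15.4 CPM in FVBxBALB/c, against 8.87, 10.1 and 7.59 CPM in C57BL/6. The groups did not overlap at either age, and the log2 fold change was 1.14 (SE 0.187, edgeR adjusted p = 5.56e-05) at E15.5 and 1.26 (SE 0.222, adjusted p = 0.000304) at E12.5. Gabra2 kept its call in every alternative run, with adjusted p up to 0.000586 at E15.5 and 0.0332 at E12.5. Knockout libraries held 20.7 to 25.7 CPM at E15.5 and 6.73 to 9.05 CPM at E12.5, and Tg(Kat6b) libraries 31.0 to 62.0 CPM and 16.8 to 24.3 CPM, within or near the wild-type ranges of their background.

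At E15.5, 5 of 56 tested receptor genes were called between the backgrounds, 1 higher and 4 lower in FVBxBALB/c, where 25.3% of all 16399 tested genes were called, 13.9% higher and 11.3% lower. At E12.5 Gabra2 was the 1 gene called of 56, where 12.8% were called over all genes, 5.59% higher and 7.19% lower. At an unadjusted p under 0.05 there were 8 at E15.5 and 6 at E12.5 (14.3% and 10.7%), beside 37.2% and 26.2% of all tested genes. Grik5 had 150, 161, 186 and 166 CPM in FVBxBALB/c E15.5 libraries, against 238, 223, 201, 230 and 230 CPM in C57BL/6. It was lower in every FVBxBALB/c library, by 0.44 on the log2 scale (SE 0.115, edgeR adjusted p = 0.00573). Grin2b had 10.7, 9.50, 5.54 and 8.73 CPM in FVBxBALB/c, against 30.6, 22.1, 13.9, 18.9 and 17.4 CPM in C57BL/6, again without overlap. Grin2b had a log2 fold change of -1.25 (SE 0.401, edgeR adjusted p = 0.0223, and up to 0.0703 without C57BL/6 replicate 1 or FVBxBALB/c replicate 3).

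Chrna3 (-0.78, edgeR adjusted p = 0.0361) and Chrna7 (-0.57, adjusted p = 0.0479) were also called lower in FVBxBALB/c at E15.5, with overlapping groups. Chrna3 had 3.64 ± 0.971 CPM in FVBxBALB/c and 6.29 ± 1.61 CPM in C57BL/6, and Chrna7 8.21 ± 3.27 CPM and 12.2 ± 1.95 CPM. Chrna3 lost its call in 7 of 17 alternatives, among them without C57BL/6 replicate 2 or 3 or without FVBxBALB/c replicate 1, 2 or 4, with adjusted p up to 0.119. Chrna7 lost its call in 11 of 17, among them without C57BL/6 replicate 1, 2, 4 or 5 or without FVBxBALB/c replicate 2, 3 or 4, with adjusted p up to 0.193. At E12.5 the next smallest p belonged to Chrm1 (-0.81, edgeR adjusted p = 0.0629), Grik5 (-0.33), Chrm5 (-1.50) and Chrnb1 (0.74), none called.

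The remaining 16 receptor genes were too low to test in either background. They were Gabra6, Gabrp, Gabrr1 and Gabrr3, Glra1, Glra3 and Glra4, Grm6, and the nicotinic Chrna1, Chrna6, Chrna9, Chrna10, Chrnb3, Chrnd, Chrne and Chrng, which include the muscle receptor (Chrna1, Chrnd, Chrne, Chrng), the cochlear receptor (Chrna9, Chrna10) and the cerebellar granule cell subunit Gabra6. Except for Gabrp, none passed 14 counts in a library. A count of 0 allows up to 3 counts, 0.0594 to 0.298 CPM depending on the library, which covers counting error only. Gabrp, an epithelial GABA-A subunit, had 519 counts (22.7 CPM) in Tg(Kat6b) E12.5 replicate 4 and at most 0.475 CPM elsewhere. That library also held the highest Krt5, at 17.9 CPM with at most 1.37 CPM elsewhere, and Trp63, at 7.93 CPM with at most 0.782 CPM elsewhere. Of 10 epithelial genes, 8 were highest in that library, while Krt8 (3.81 CPM) and Epcam (9.50 CPM) reached up to 8.34 and 23.1 CPM elsewhere. These epithelial genes were chosen after the Gabrp value was seen.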

How the data were processed

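Total RNA from E15.5 cortex and E12.5 dorsal telencephalon was sequenced as 66 bp paired-end reads, per the labels, from a library kit that does not mark strand. The authors deposited 1 file per library with whole-number counts per gene, and a gene length in bases that is used here only to scale levels; featureCounts, bcl2fastq and the build mm10 are named in the submitters' processing notes, while for the aligner, annotation and settings nothing is given in the sources used here. Every one of the files holds 27179 rows. The 848 rows without a gene name (0.305 to 2.00% of counts) were left out of library sizes and tests.

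Counts were tested with edgeR 4.0.16 (R 4.3.3; TMM scaling, robust quasi-likelihood fit, genes kept by filterByExpr at a minimum count of 10 and total of 15), in 1 fit of 16 libraries per background (16118 and 15556 genes) and 1 fit of all 32 libraries for the background comparison (16399 genes). P-values were adjusted by Benjamini-Hochberg over all genes of the fit and called under 0.05. Standard errors were taken as the size of the log2 fold change over the root of its F statistic. CPM values share 1 TMM scale over all 32 libraries. Intervals of log2 fold changes were built from the standard errors of the fits, so they include the spread between libraries. The counting interval of the Gabrd ratio and the floors of 3 counts cover counting error only. Alternatives were RLE scaling, no filter, DESeq2 1.42.0, limma-voom (limma 3.58.1) with and without sample quality weights, replicate and litter blocks, fits of only the groups compared, and leaving libraries out. The fits were tested on simulated counts with 200 changed genes. No replicate pair held identical counts. Figures were drawn with matplotlib 3.10.9 in Python 3.11.15.

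The receptor genes and all lists were chosen with earlier results of these data known. Per comparison, all called receptor genes were to be named up to 24, otherwise the 12 with the largest log2 fold change in each direction at 1 CPM or more in a group, the 5 with the smallest p where fewer than 5 were called, the 10 highest per length, and up to 3 genes of each partner list by p; other receptor genes are named as members of the same family or receptor. Some genes that this rule names are not reported here. Epithelial markers and the counts of genes above 0 per setting were added after seeing the data. In C57BL/6, same-numbered knockout and wild-type libraries share a labelled litter. At E12.5 replicates 3 and 4 of both genotypes share litter 592, so the number gives no unique pair there. Deviations of same-numbered libraries correlated at 0.43, -0.43 and 0.38 at E12.5 and at 0.21, -0.16, 0.31, -0.10 and 0.41 at E15.5. Across numbers within litter 592, knockout 4 and wild-type 3 correlated at 0.64, and knockout 3 and wild-type 4 at -0.22. In FVBxBALB/c the libraries share only a number.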

Additional observations from a re-analysis of the deposited data

Results flagged for a closer look

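In groups of 4 or 5 libraries, 19 of 234 receptor gene and group combinations (39 genes) had 1 library set apart from the rest of its group by a gap that covered most of the group's range. For normally distributed values chance alone flags about 1 in 20 groups, a rate that need not hold for genes near 0 counts.

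Of these, 7 came from wild-type FVBxBALB/c E12.5 replicate 4. There Gria1 was at 11.4 CPM (26.6 to 29.7 CPM in the others), Grik2 at 33.5 CPM (60.7 to 61.7) and Chrna7 at 2.08 CPM (3.2 to 3.41). Genes near 0 had a few counts there: Gabrp 0.475 CPM (0 to 0.0326), Chrnd 0.238 CPM, Chrna9 0.119 CPM and Gabrd 0.0198 CPM (all 0 in the others). Its erythroid markers summed to 9064 CPM and its meningeal and mesenchymal markers to 1971 CPM, the highest of their group, and their part in these values was not tested.

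In Tg(Kat6b) E12.5 replicate 1, Gria2 was at 307 CPM (80.7 to 95.8 in the others), Gria3 at 18.4 CPM (10.2 to 10.7) and Gabbr2 at 6.22 CPM (2.58 to 3.15), and its pan-neuronal sum of 5089 CPM was the highest of its group. Gabrp was at 22.7 CPM in Tg(Kat6b) E12.5 replicate 4 (0 to 0.42 in the others), beside the epithelial genes given above. At E15.5 it had a trace in Tg(Kat6b) replicate 3 (0.0809 CPM) and in wild-type FVBxBALB/c replicate 3 (0.0692 CPM), with 0 in the others.

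At E15.5, Grm5 was at 85.5 CPM in wild-type C57BL/6 replicate 1 (54.4 to 62.9 in the others). In knockout E15.5 libraries, Grik3 was at 196 CPM in replicate 2 (247 to 258) and Chrnd at 0.0413 CPM in replicate 4 (0). In Tg(Kat6b) replicate 4 Gabrb1 was at 3.09 CPM (1.61 to 1.69), and in wild-type FVBxBALB/c replicate 1 Gabra5 was at 18.1 CPM (28.3 to 29.5) and Grm8 at 2.74 CPM (3.57 to 3.69).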

How the results depend on the processing

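No named result was reversed in any alternative run. At E12.5 the number of receptor genes above 0 moved with the tool: 24 for Tg(Kat6b), against 39 with limma-voom and 11 with sample quality weights, and 33 for the knockout, against 14 with quality weights. With the replicate block, no receptor count moved by over 1.5 times: 48 genes were called by age in C57BL/6 (46 higher, 2 lower), 43 in FVBxBALB/c (39 higher, 4 lower) and 0 for either genotype. In FVBxBALB/c, where the libraries share only a number, same-numbered libraries correlated at 0.65, 0.05, -0.15 and 0.42 at E12.5 and at -0.20, 0.10, -0.01 and -0.09 at E15.5. Across all other alternatives the age counts ran from 46 to 49 in C57BL/6 (45 to 47 with single libraries left out) and from 41 to 45 in FVBxBALB/c (40 to 46). Genotype counts were 0 in every alternative but limma-voom with sample quality weights, which called 2 genes for Tg(Kat6b) at E12.5. The calls over all genes in that run also rose and are given below.

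The background comparison depended most on the setting. At E15.5 its 5 calls became 15 in a fit of only the groups compared and 9 with quality weights, and 3 to 5 with single libraries left out (3 without C57BL/6 replicate 1 or 2 or FVBxBALB/c replicate 4). At E12.5 its 1 call became 6 with quality weights, and 1 to 5 with single libraries left out (3 and 2 without C57BL/6 replicate 1 and 3, and 5 without FVBxBALB/c replicate 4). The cause was not tested. Over all genes, the E12.5 background count was 2095, against 203 in the fit of only the groups compared and 5211 with quality weights. The Tg(Kat6b) E12.5 count over all genes was 2 of 15556 tested, against 832 with quality weights, where 2 of 54 receptor genes were called. For single named genes, 520 results kept their side of the threshold, 2 gained and 9 lost the call, and with single libraries left out 616 kept it, 3 gained and 21 lost it. Genes under about 10 counts per library could not be tested.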
